A study of Mus musculus with 2 samples.

Results

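The genes examined here are 9 genes of iron uptake, storage and recycling, taken by symbol from the 32286 features of single-cell libraries of mouse bone marrow: Tfrc, Slc11a1, Fth1, Ftl1, Hmox1, Slc40a1, Spic, Cd163 and Ireb2. All 9 were among the features, and each was followed through macrophages, the erythroid stages and the other cell classes that marker genes defined. Hematopoietic cells of the marrow were measured in 2 libraries, 1 per genotype. The control library has the genotype Mx1Cre+/-;Rosa26+/+. The other, called the MYC library, has the genotype Mx1Cre+/-;Rosa26LSL-MYC/LSL-MYC, so that both carry Mx1Cre and differ in the Rosa26 locus. Mx1Cre is a Cre recombinase under an interferon-inducible promoter that is active in blood stem cells and also in other cells, and LSL-MYC is a MYC transgene that Cre switches on by removing a stop cassette. The series title and design concern marrow gene expression after the stem cells overexpress MYC. The labels give neither the age of the mice, nor an inducing agent, nor how many mice a library came from, and with 1 library per genotype no difference between the genotypes could be tested against replicate error.

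Iron reaches most marrow cells as transferrin, which is taken up by the transferrin receptor Tfrc, and erythroblasts take up most of it to make heme. Macrophages of the marrow engulf worn red cells and expelled nuclei, break heme down with heme oxygenase Hmox1 and return the iron to plasma through ferroportin Slc40a1, the iron exporter of vertebrate cells. Iron that is neither used nor exported is stored in ferritin, a shell of heavy (Fth1) and light (Ftl1) chains. The iron regulatory proteins, of which Ireb2 (IRP2) is one, bind a hairpin called the iron-responsive element when iron is scarce: bound near the start of ferritin and ferroportin messages it blocks translation, and bound in the 3′ untranslated region of Tfrc it protects the message from decay. RNA counts can show the second of these effects but not the first.

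In all 131884603 unique molecular identifiers (UMIs, each counting 1 captured RNA molecule) came from 17073 control barcodes and 110012176 from 14496 barcodes of the MYC library, with 97 barcode sequences present in both. After filters and removal of called doublets, 14903 control cells (median 5343 UMIs) and 12540 from the MYC library (median 6016) were kept. The feature named MYC, beside the mouse gene Myc, had 0 UMIs in control cells and 289 in MYC-library cells. Of these 156 lay in mature neutrophils, 5 in stem or multipotent progenitors and 0 in macrophages. The macrophages held so few UMIs that the exact 95% interval of their 0 reached 29.4 per 1000000 UMIs, against 2.84 in all MYC-library cells. Both libraries were clustered together without the 9 genes, which gave 18 classes named from marker genes and 7 clusters that stayed unnamed. Every class had UMIs of all its markers in both libraries. A level is the gene's UMIs per 1000000 UMIs of the class (CPM), with an exact Poisson 95% interval that covers counting error only. A gene was called higher or lower in a class where its levels differed at least 2-fold, the exact 95% interval of the ratio excluded no difference, and the libraries together held at least 20 of its UMIs. Such a call compares these libraries, not the genotypes. RNA set free from broken cells also enters droplets. An upper limit for it, the free-RNA limit below, came from reading all S100a8 and S100a9 UMIs of a class (haemoglobin UMIs for the neutrophil lineage) as free RNA.

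All 9 genes are protein coding, and their identifiers in the files match the GENCODE vM21 annotation of the mouse genome build GRCm38. Tfrc (ENSMUSG00000022797) lies at chr16:32608920-32632794 on the plus strand and Slc11a1 (ENSMUSG00000026177) at chr1:74375195-74386062 on the plus strand. Fth1 (ENSMUSG00000024661) spans chr19:9980598-9985098 on the plus strand and Ftl1 (ENSMUSG00000050708) chr7:45457944-45459884 on the minus strand. Hmox1 (ENSMUSG00000005413) is at chr8:75093621-75100589 on the plus strand, and Slc40a1 (ENSMUSG00000025993) at chr1:45908068-45926523 on the minus strand. Spic (ENSMUSG00000004359) covers chr10:88674772-88685015 on the minus strand, Cd163 (ENSMUSG00000008845) chr6:124304656-124330527 on the plus strand, and Ireb2 (ENSMUSG00000032293) chr9:54863789-54912530 on the plus strand.

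The hairpins are shown because Tfrc, both ferritin genes and Slc40a1 carry them while the other genes of the set do not show one. GENCODE transcripts of GRCm38 were searched on the sense strand for C, an arm of 5 bases, the loop CAGTGN and an arm of 5 bases that pairs with the first, with G-to-U pairs allowed. Of 21866 protein-coding genes 294 (1.34%) held such a sequence anywhere, 31 (0.142%) in a 5′ untranslated region and 129 (0.590%) in a 3′ untranslated region. Among the 9 genes 4 held it, with 7 sites in all, and in the other 5 these letters were not found. The sites are written 5′ to 3′ as DNA letters, 19 bases each, with the loop in capitals.
Fth1, 5′ untranslated region, exon 1, chr19:9982737-9982755, plus strand: gcttcaaCAGTGCttgaac
Ftl1, 5′ untranslated region, exon 1, chr7:45459784-45459802, minus strand: gcttcaaCAGTGTttgaac
Slc40a1, 5′ untranslated region, exon 1, chr1:45925470-45925488, minus strand: tcagctaCAGTGTtagcta
Tfrc, 3′ untranslated region, exon 19, chr16:32631224-32631242, plus strand: tcggaagCAGTGCcttcca
Tfrc, 3′ untranslated region, exon 19, chr16:32631603-32631621, plus strand: tcgggagCAGTGTcttcca
Tfrc, 3′ untranslated region, exon 19, chr16:32631668-32631686, plus strand: tcggagaCAGTGAtctcca
Tfrc, 3′ untranslated region, exon 19, chr16:32631715-32631733, plus strand: tcgggaaCAGTGTttccca

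The 4 Tfrc sites lie in 1 exon, and the ferritin sites differ from each other in the last loop base. Over the 9 genes and 18 classes, 109 of 162 values had enough UMIs for a ratio. Of these 10 were called higher in the MYC library, where 4.06% of 155655 values of all genes in these classes were, and 12 lower, where 6.11% of all were. Tfrc accounted for 7 of the 10 higher calls and Slc40a1 for 5 of the 12 lower ones. The remaining higher calls were Hmox1 in 2 classes and Ftl1 in 1, and the remaining lower ones Ireb2 in 3 classes and Hmox1, Cd163, Slc11a1 and Spic in 1 each. Restricted to classes with at least 50 cells in each library, an alternative added after the data were seen, 9 were higher and 9 lower. The calls left out, 1 higher and 3 lower, were those of macrophages, with 29 cells in the MYC library. In that class 4.86% of all genes were called higher and 7.25% lower. The share of all genes was not computed for the restricted classes together.

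**Figure D1:**
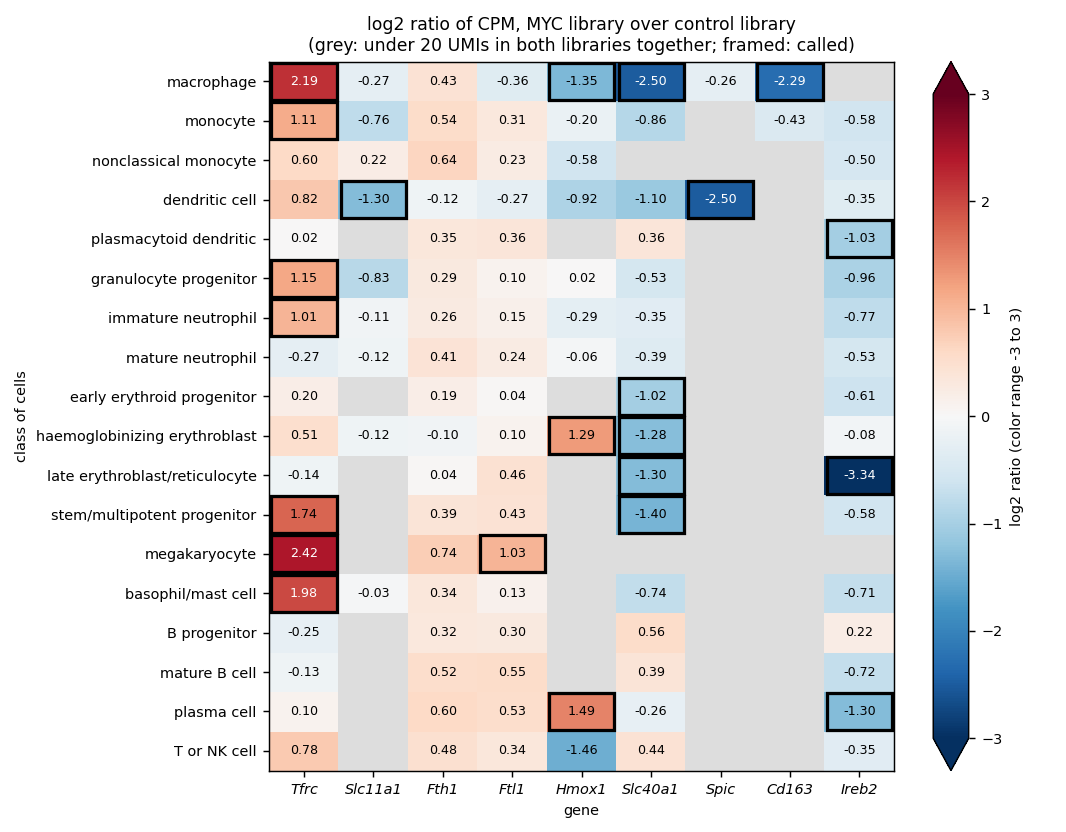
Log2 ratio of CPM, MYC library over control library, for each gene (columns) in each class of cells (rows), printed in each cell and colored from blue (lower in the MYC library) to red (higher); grey cells had under 20 UMIs and framed cells were called. The Tfrc column holds 7 framed red cells and the Slc40a1 column 5 framed blue ones.

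Tfrc, the receptor that brings transferrin iron into the cell, was highest in the erythroid classes of both libraries. Its level was 342 CPM in early erythroid progenitors of the control and 393 in those of the MYC library. In haemoglobinizing erythroblasts it was 1034 CPM (95% interval 1016 to 1053) in the control and 1470 (1427 to 1514) in the MYC library, from 11958 and 4399 UMIs. Late erythroblasts and reticulocytes held 1026 and 934 CPM. None of these 3 stages was called, with log2 ratios of 0.20, 0.51 and -0.14. The haemoglobinizing class joins cluster 9 (700 and 165 cells), with 1058 and 1448 CPM, and the shallower cluster 25 (102 and 161 cells), with 600 (539 to 665) and 1571 (1467 to 1682), a difference of more than 2-fold in that cluster. When the erythroid cells were clustered again on their own, stages were named under a looser rule and held partly other cells than the classes of the same name. Their log2 ratios were -0.17, -0.08 and 0.47. The early one had 39 cells of the MYC library, and the haemoglobinizing one joined sub-clusters of 92 and 0 and of 2 and 152 cells. The direction thus depended on which cells a stage held. Among the main classes, the haemoglobinizing and late stages had overlapping intervals in the control but not in the MYC library.

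The calls for Tfrc, made per class, lay outside the erythroid classes, where its level was lower to begin with. In stem or multipotent progenitors it was 47.6 CPM (41.4 to 54.6) in the control, from 209 UMIs, and 159 (145 to 173) in the MYC library, from 513. The log2 ratio was 1.74, in a class where 1.56% of all genes were called higher. After thinning every cell to 1000 UMIs, 4.04% of the control progenitors had a Tfrc UMI against 15.2% of those in the MYC library, where the unthinned numbers were 103 of 198 and 108 of 179. In plasma cells, whose Tfrc lay under the free-RNA limit, the thinned shares were 1.65% and 2.38%. Granulocyte progenitors, the first step of the neutrophil lineage, had 64.2 CPM in the control against 142 in the MYC library (log2 ratio 1.15, 1.02 to 1.28), against 1.16% of all genes called higher. Immature neutrophils had 33.9 and 68.3 CPM (log2 ratio 1.01, 0.88 to 1.13), against 2.95%. This class joins 4 clusters: cluster 2 (952 and 744 cells) had 24.8 and 31.4 CPM, cluster 4 (692 and 985 cells) 37.2 and 79.1, cluster 15 35.4 and 69.7, and cluster 24 47.7 and 104. Mature neutrophils were not higher, at 33.6 and 28.0 CPM, which is 1.37 and 1.30 times the free-RNA limit.

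Monocytes had 18.8 CPM of Tfrc in the control against 40.6 in the MYC library (log2 ratio 1.11, 0.89 to 1.34), against 3.20% of all genes called higher. The control value is 0.747 times the free-RNA limit, so it cannot be told from free RNA. Within this class, monocyte cluster 8 had 20.9 and 52.4 CPM and cluster 6 had 16.7 and 23.6. Basophils or mast cells had 26.8 CPM (19.6 to 35.7, 46 UMIs) and 106 (89.5 to 124, 152 UMIs), a log2 ratio of 1.98, against 1.71% of all genes called higher. Megakaryocytes, with 59 and 61 cells, had 21.4 CPM from 8 UMIs and 115 from 34 (log2 ratio 2.42, 1.28 to 3.74), against 9.64% of all genes called higher. In both of these classes the control level was under the free-RNA limit (0.692 and 0.474 times). Megakaryocytes of the MYC library also held more erythroid and neutrophil RNA: haemoglobin was at 1809 CPM in the control against 14930 in the MYC library, with S100a8 and S100a9 at 23188 and 47840. The part of this RNA in the megakaryocyte Tfrc value was not tested. In macrophages Tfrc had 50.8 CPM from 13 UMIs in the control and 231 from 29 in the MYC library (log2 ratio 2.19, 1.20 to 3.25). Here 4.86% of all genes were called higher, and the call ended where cells of cluster 10, described below, entered the class (log2 ratio -0.16 after a stricter depth filter). The unnamed cluster 11 (269 and 383 cells) had 37.6 and 130 CPM.

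The calls in stem or multipotent progenitors and in basophils or mast cells held under every other setting that could name the class. That in megakaryocytes did too, but none of these settings removed the erythroid RNA described above. Those in monocytes, granulocyte progenitors and immature neutrophils lay near 2-fold and ended under some settings, with lowest log2 ratios of 0.94, 0.91 and 0.92. Over the 18 classes Tfrc was nominally higher in 14 and lower in 4, with a median log2 ratio of 0.69. After the median ratio of all genes was taken out of each class it was higher in 15 and lower in 3. B progenitors, mature B cells and plasma cells, whose log2 ratios were -0.25, -0.13 and 0.10, had intervals that included no difference. The erythroid classes, with 1472 control cells and 585 in the MYC library, held 78.1% of the control's Tfrc UMIs and 47.2% of those in the MYC library. The neutrophil lineage held 9.39% and 25.1%.

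**Figure D2:**
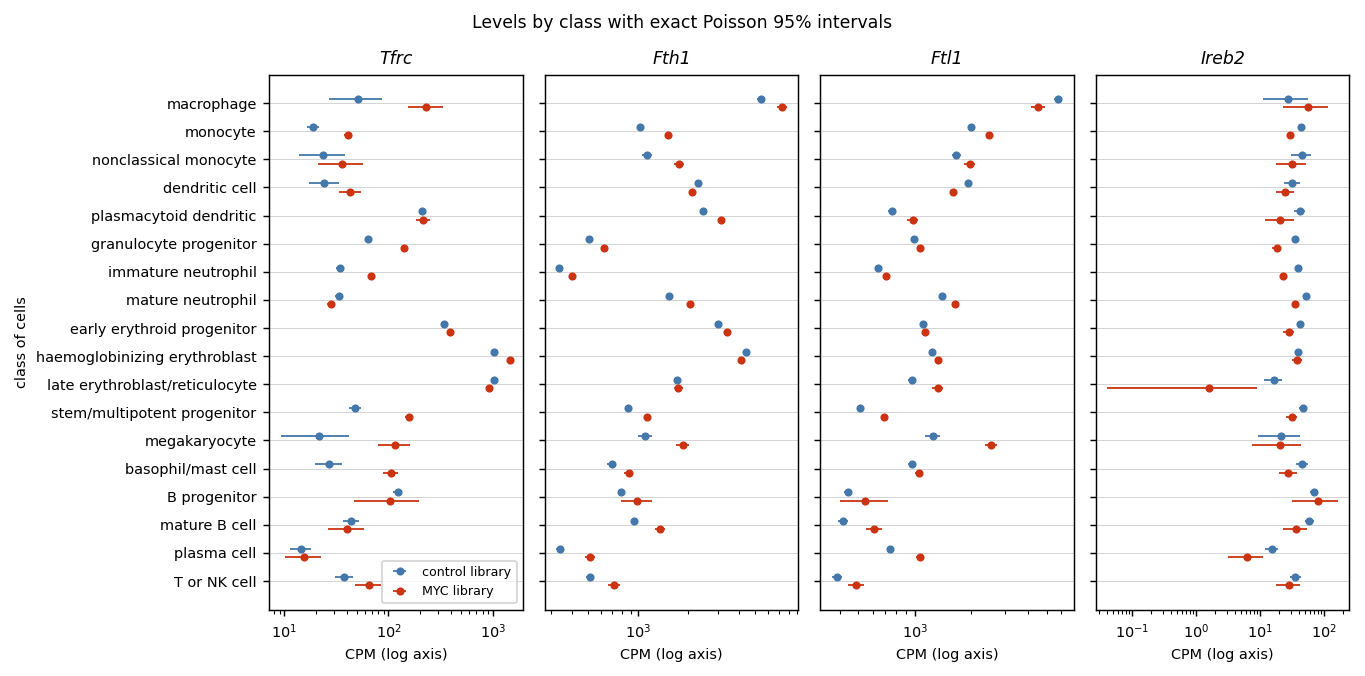
Levels of Tfrc, Fth1, Ftl1 and Ireb2 in CPM (log axes) in the 18 classes, with a point and an exact Poisson 95% interval for the control library (blue) and the MYC library (red). Tfrc is highest in the erythroid classes and differs at least 2-fold between libraries in 7 other classes, while Ireb2 of the MYC library lies at or left of the control in most classes.

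Slc11a1 (NRAMP1) moves iron and other metals out of the phagosome and is known from macrophages and neutrophils. Its levels were 211 CPM in control macrophages, from 54 UMIs, and 175 in those of the MYC library, from 22 (log2 ratio -0.27, -1.05 to 0.47). Among the other named classes nonclassical monocytes followed with 79.6 and 93.0 CPM and mature neutrophils with 60.4 and 55.6. The unnamed cluster 10 had 154 and 92.1 CPM and held 17.8% of the Slc11a1 UMIs of the MYC library. Mature neutrophils held 54.3% of its UMIs in the control against 51.2% in the MYC library. Its single call was in dendritic cells, which had 35.1 CPM from 55 UMIs in the control and 14.3 from 24 in the MYC library (log2 ratio -1.30, -2.06 to -0.58), in a class where 6.26% of all genes were called lower. Monocytes had 31.1 and 18.3 CPM, a difference that did not reach 2-fold (log2 ratio -0.76, -0.99 to -0.54).

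Ferritin messages were abundant in every class. Fth1, the heavy chain that oxidizes iron on its way into the shell, ranged in the control from 333 CPM in immature neutrophils to 5424 in macrophages, and in the MYC library from 398 to 7295 in the same classes. Haemoglobinizing erythroblasts came second in both, with 4414 and 4120 CPM. Their log2 ratio of -0.10 was 0.70 in the stages of the separate erythroid clustering, where this stage joined a sub-cluster of 92 and 0 cells with one of 2 and 152, and that of late erythroblasts was 0.04 and 0.96. Fth1 was not called in any class, but in 16 of 18 its level in the MYC library was above that in the control, in 14 with an interval that excluded no difference. After the median ratio of all genes was taken out it was above in 15 and below in 3. The median log2 ratio was 0.37 and the highest 0.74, in megakaryocytes. There 246 of the 546 Fth1 UMIs of the MYC library lay in 1 cell, the mean over cells gave -0.01, and the part of the erythroid and neutrophil RNA given above was not tested. In macrophages it was 0.43 (0.31 to 0.55) and in mature neutrophils 0.41 (0.39 to 0.44), the latter from 1535 and 2043 CPM. Within the most even of the mature neutrophil clusters, cluster 1 with 2353 and 1688 cells, the log2 ratio was 0.12, from 1207 and 1314 CPM. The mature neutrophils of the libraries otherwise lay in different clusters. Cluster 3, with 1530 and 151 cells, had 2289 and 3106 CPM, and cluster 5, with 127 and 1525 cells, had 2157 and 2968.

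Ftl1, the light chain that helps iron form its mineral core, likewise was above the control in 16 of 18 classes, with a median log2 ratio of 0.27. The 2 exceptions were macrophages, with 5764 CPM in the control against 4504 in the MYC library (log2 ratio -0.36, -0.50 to -0.21), and dendritic cells, with 1916 and 1592. Megakaryocytes were called higher, with 1249 and 2550 CPM, but 417 of the 755 UMIs of the MYC library there lay in 1 cell. The mean over cells of each cell's CPM gave a log2 ratio of 0.22 for that class. Reads of the pseudogene Ftl1-ps1 were counted as their own feature and amounted to 1.90% and 0.885% of the Ftl1 UMIs in macrophages. This was not particular to macrophages: in mature neutrophils it was 1.56% and 0.792%. Of the named classes only B progenitors went the other way, at 1.74% and 2.08%, the latter from 1 Ftl1-ps1 UMI. How reads shared by Ftl1 and its pseudogene were assigned is not given in the sources used here.

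Because 3′ counting records a molecule once whatever its length, the light chain's share of ferritin UMIs can be compared between classes. In the control it ran from 21.9% (95% binomial interval 21.6 to 22.3) in haemoglobinizing erythroblasts and 23.6% in plasmacytoid dendritic cells to 65.9% (65.4 to 66.4) in monocytes, 66.2% in granulocyte progenitors and 68.5% in plasma cells. In macrophages the share was 51.5% (49.7 to 53.4) in the control and 38.2% (35.7 to 40.7) in the MYC library. Mature neutrophils had 47.7% and 44.6%. In the MYC library haemoglobinizing erythroblasts had 24.4%, plasmacytoid dendritic cells 23.8%, monocytes 62.2% and plasma cells 67.5%. In late erythroblasts the MYC library had the higher share, 43.2% (41.0 to 45.5) against 36.3%. In the separate erythroid clustering the direction turned, with log2 ratios of 0.96 for Fth1 and 0.85 for Ftl1. There the late stage joined sub-clusters of 238 and 3, 1 and 73, and 29 and 20 cells. After a stricter depth filter the direction stayed, but the ratios were closer together, at 0.69 for Fth1 and 0.79 for Ftl1. The late cells of the main class had medians of 6214 and 2408 UMIs. They held S100a8 and S100a9 at 15580 and 42406 CPM, and the part of that neutrophil RNA in the share was not tested.

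Heme breakdown and iron export were measured where they are best known, in macrophages, which formed 1 small cluster led by Cd5l, Fcna, Mrc1, Mertk, Axl and C1qa. It held 52 control cells with 255909 UMIs and 29 cells of the MYC library with 125435 UMIs, so each value below rests on few cells. Hmox1, heme oxygenase 1, had 2290 CPM from 586 UMIs in the control and 901 from 113 in the MYC library (log2 ratio -1.35, -1.65 to -1.05). Slc40a1, ferroportin, had 1485 CPM from 380 UMIs and 263 from 33 (log2 ratio -2.50, -3.06 to -1.98). The scavenger receptor Cd163, which binds haptoglobin-bound haemoglobin, had 156 CPM from 40 UMIs and 31.9 from 4 (log2 ratio -2.29, -4.24 to -0.83). These 3 genes were called lower, in a class where 7.25% of all genes were. Spic, the transcription factor needed for iron-recycling macrophages, was not called, with 383 CPM from 98 UMIs and 319 from 40 (log2 ratio -0.26, -0.83 to 0.28).

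**Figure D3:**
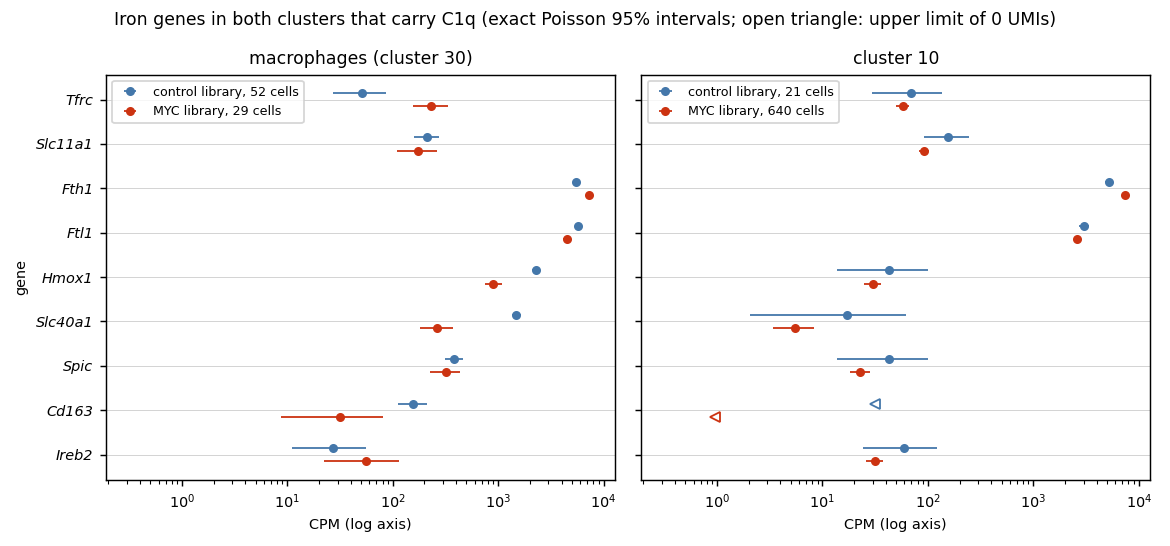
Levels of the 9 genes in CPM (log axes) in macrophages (cluster 30) and in the unnamed cluster 10, with exact Poisson 95% intervals for the control (blue) and MYC (red) library. Hmox1, Slc40a1, Spic and Cd163 lie far to the right in macrophages compared with cluster 10 in both libraries, and Slc40a1 of macrophages is at 1485 CPM in the control against 263 in the MYC library.

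Single macrophages varied widely. Hmox1 was seen in 38 of 52 control macrophages and in 17 of the 29 others, at median depths of 2162 and 2231 UMIs, with medians of 5.75 and 2.28 UMIs per 10000. Slc40a1 was seen in 34 and 11 of them, with medians of 5.85 and 0. The richest cell held 34.1% of the control's Hmox1 UMIs and 34.5% of those of the MYC library. Without the richest cell of each library the log2 ratio of Hmox1 was -1.34 and that of Slc40a1 -2.33. Means over cells, which weight each macrophage equally, gave -1.04 for Hmox1, -1.38 for Slc40a1 and 0.11 for Cd163. For Cd163 1 control cell held 26 of the 40 UMIs, and without the richest cells the log2 ratio was -1.29 with an interval of -3.73 to 0.55. In macrophages under 5% mitochondrial UMIs the log2 ratio of Hmox1 was -0.49 (-0.88 to -0.12) and no longer called, that of Spic was 1.01 (0.32 to 1.67), and that of Slc40a1 was -2.56. The values without the richest cell and by mitochondrial share were added after the data were seen. The stricter depth filter, after which this class was mostly cells of cluster 10, gave -0.65 for Hmox1.

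**Figure D4:**
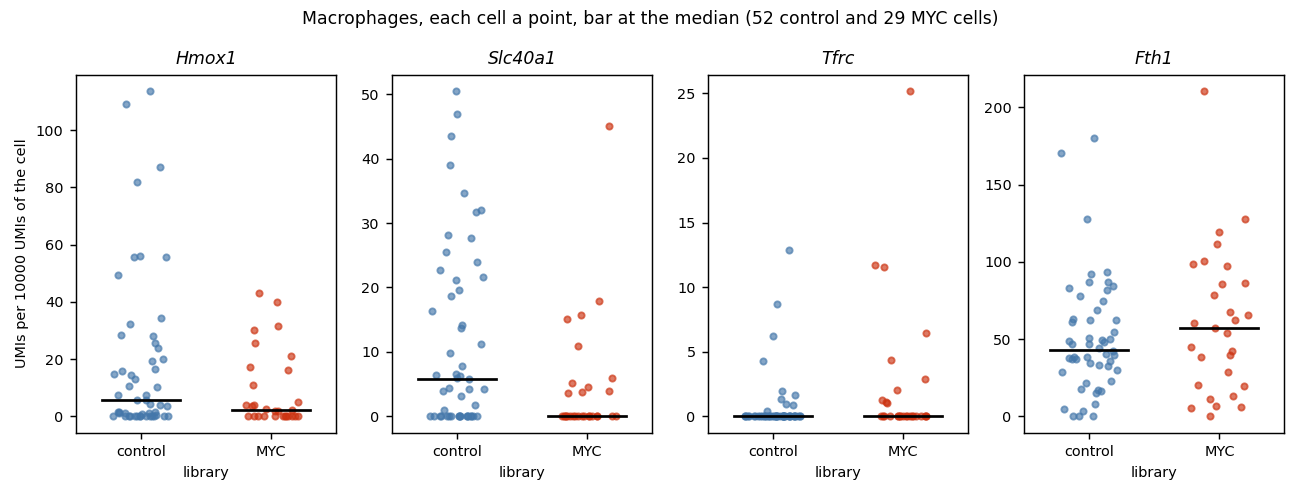
UMIs per 10000 UMIs of the cell for Hmox1, Slc40a1, Tfrc and Fth1, with each macrophage as a point and a bar at the median, in the control (blue, 52 cells) and MYC (red, 29 cells) library. The median of Slc40a1 is 5.85 in the control against 0 in the MYC library, and single cells of both libraries reach over 40.

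Other genes differed beside these. Of the 10 macrophage markers all had UMIs in both libraries, with a summed level of 13509 CPM in the control against 14470 in the MYC library. Among them Vcam1, which marks macrophages of erythroblastic islands, was at 3294 and 1036 CPM and Mertk at 442 and 223. Cd5l, a secreted macrophage protein, had 473 and 1953 CPM and C1qb 1805 and 3380. Haemoglobin messages made up 15025 CPM of the control macrophages and 1810 CPM of those in the MYC library. The part of these differences in the values of Hmox1, Slc40a1 and Cd163 was not tested. The free-RNA limit in control macrophages was 2.41 CPM for Hmox1 and 8.88 for Slc40a1, far under the measured levels.

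A further cluster with C1q messages, cluster 10, is led by C1qb, C1qc, Fcrl5, Negr1 and Cd300e. It held 21 control cells and 640 cells of the MYC library and stayed unnamed because it scored highest for nonclassical monocytes while 3 of its leading genes were macrophage markers. The 10 macrophage markers were split in its MYC-library cells. C1qa, C1qb and C1qc were at 1435, 2313 and 1404 CPM, Axl at 112 and Adgre1 at 89.5, whereas Vcam1 was at 6.79, Cd5l at 4.44, Mrc1 at 3.13, Mertk at 2.61 and Siglec1 at 0.783. Its Fth1 level was close to that of macrophages, at 5207 CPM in the control cells and 7476 in those of the MYC library. Ftl1 was lower than in macrophages, at 3049 and 2620 CPM, and so was the sum of both ferritin genes, at 8256 and 10096 CPM against 11188 and 11799. Recycling genes were low in it: in the MYC library Hmox1 was at 30.3 CPM (116 UMIs), Slc40a1 at 5.48 (21 UMIs), Spic at 23.0 (88 UMIs) and Cd163 had 0 UMIs. The light-chain share of its ferritin UMIs was 25.9% in the MYC library, against 38.2% in macrophages. In the MYC library this cluster held 51.8% of all Spic UMIs and 17.7% of all Fth1 UMIs, and macrophages 23.5% and 0.567%.

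A gate on at least 10 summed UMIs of C1qa, C1qb and C1qc took different cells from the libraries. In the control it held 58 cells, of which 27 were macrophages, 18 dendritic cells and 9 of cluster 10. In the MYC library it held 411 cells, of which 379 were of cluster 10 and 14 macrophages. In gated cells Hmox1 had 981 CPM in the control against 57.5 in the MYC library, Slc40a1 654 and 10.1, and Spic 186 and 29.5. Cd163 had 36 UMIs in the gated control cells and 0 in those of the MYC library. Fth1 had 5031 and 7486 CPM. With this makeup the gated values compare different kinds of cells, whereas the values of the macrophage cluster come from cells that clustered together.

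Outside macrophages Slc40a1 was found mainly in neutrophils, which held 67.7% of its UMIs in the control against 88.1% in the MYC library with their progenitors. Its control level was 52.2 CPM in granulocyte progenitors, 81.3 in immature neutrophils and 178 in mature ones. The MYC library had 36.2, 63.9 and 135 CPM at these steps, and in neither library did the intervals of successive steps overlap. Mature neutrophil levels were 19.5 and 17.4 times the free-RNA limit. Within this class, cluster 1 (2353 and 1688 cells) had 135 and 119 CPM. Cluster 3 (1530 and 151 cells) had 284 and 233, and cluster 5 (127 and 1525 cells) 172 and 151. The part of this makeup in the class ratio was not tested. The log2 ratios of the 3 steps were -0.53, -0.35 and -0.39, none of them called. The median ratio of all genes was -0.30, -0.20 and -0.23 in these classes, and after it was taken out the 3 values were -0.23, -0.15 and -0.16.

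In the erythroid classes Slc40a1 was called lower at every stage. Early erythroid progenitors had 68.5 CPM from 588 UMIs in the control and 33.7 from 128 in the MYC library (log2 ratio -1.02, -1.31 to -0.74), in a class where 5.30% of all genes were called lower. Haemoglobinizing erythroblasts had 64.7 CPM from 748 UMIs and 26.7 from 80 (log2 ratio -1.28, -1.63 to -0.94), against 5.18% of all genes. Late erythroblasts and reticulocytes had 43.9 CPM from 107 UMIs and 17.8 from 11 (log2 ratio -1.30, -2.35 to -0.41), against 9.12%. Over the 3 stages together the levels were 63.9 and 29.6 CPM. The late value of the MYC library is 1.11 times the free-RNA limit, and the late call ended under settings that drew this class differently, where the value nearest 0 was -0.50.

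The call in early progenitors did not hold after the median ratio of all genes was taken out (log2 ratio -0.81). Thinned to 1000 UMIs, 3.30% and 3.33% of these cells had a Slc40a1 UMI, so no order was read from that share. In haemoglobinizing erythroblasts the thinned shares were 7.47% and 4.28%, against 52.7% and 18.1% unthinned, and in plasma cells, which lay at the free-RNA limit, 1.23% and 3.57%. This class joins cluster 9 with the shallow cluster 25, and in cluster 9 alone the log2 ratio was -1.78 while cluster 25 had 74.5 and 63.8 CPM. The mean over cells gave -0.52 for the class. Separate clustering of the erythroid cells gave 12 sub-clusters, of which 6 held almost only 1 library. In the 3 stages set from their marker scores, which held partly other cells than the main classes, the log2 ratios of Slc40a1 were -1.30, -1.70 and -0.95. The early stage had 39 cells from the MYC library, and the haemoglobinizing one joined sub-clusters of 92 and 0 and of 2 and 152 cells. The late value came from 34 UMIs, and its interval of -2.67 to 0.44 included no difference. Stem or multipotent progenitors were called lower too, at 9.80 CPM from 43 UMIs and 3.72 from 12 (log2 ratio -1.40, -2.46 to -0.45, against 3.10% of all genes), but these are only 1.70 and 2.16 times the free-RNA limit and the log2 ratio was -0.67 with each library clustered on its own.

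**Figure D5:**
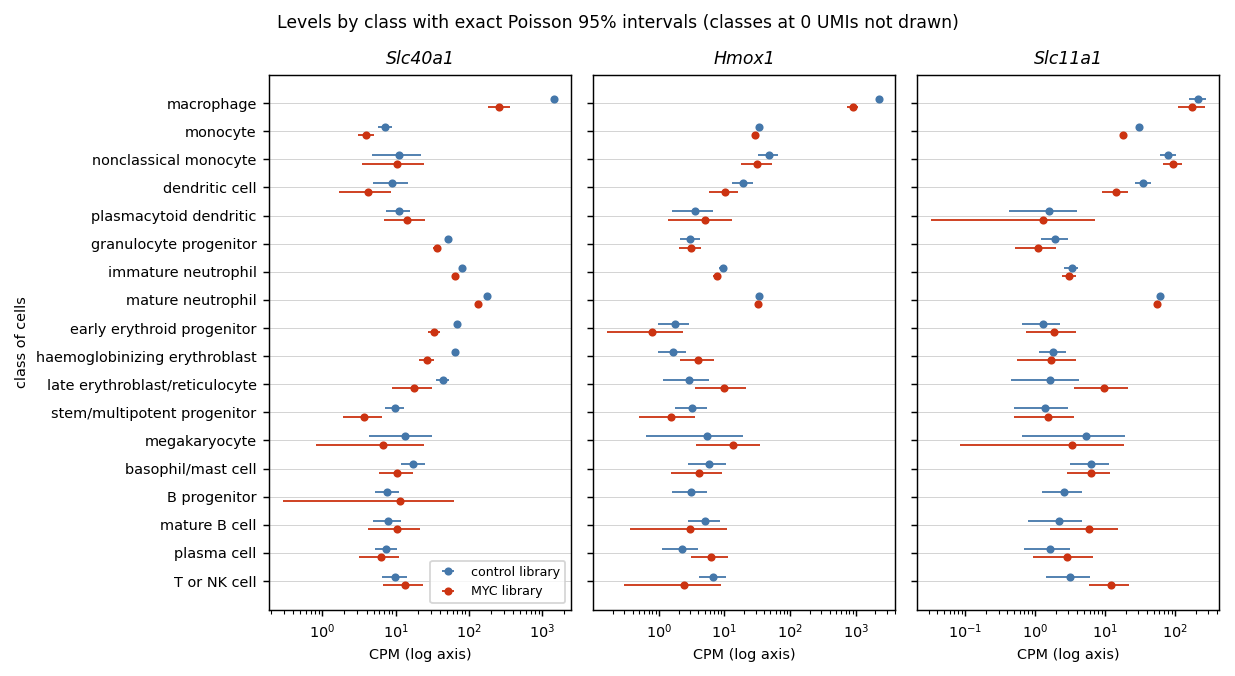
Levels of Slc40a1, Hmox1 and Slc11a1 in CPM (log axes) in the 18 classes, with a point and an exact Poisson 95% interval for the control (blue) and MYC (red) library; classes with 0 UMIs are not drawn. Macrophages have the highest level of all 3 genes in both libraries, and the erythroid classes of the MYC library lie left of the control for Slc40a1.

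Among the named classes other than macrophages, the control level of Hmox1 was highest in nonclassical monocytes, at 47.5 CPM from 34 UMIs against 31.7 from 15 in the MYC library (log2 ratio -0.58, -1.57 to 0.33). Monocytes had 33.8 and 29.5 CPM and mature neutrophils 33.4 and 32.2, with log2 ratios of -0.20 and -0.06. Macrophages held 26.3% of its UMIs in the control against 6.56% in the MYC library. It was called higher in haemoglobinizing erythroblasts, at 1.64 CPM from 19 UMIs and 4.01 from 12, where 5.49% of all genes were called higher. It was also called higher in plasma cells, at 2.23 CPM from 11 UMIs and 6.27 from 11, where 7.17% were. In both, the levels were between 0.848 and 2.85 times the free-RNA limit, and in cluster 9 alone the erythroblast log2 ratio was 0.16. Spic and Cd163 had under 20 UMIs in most classes. Spic was called lower in dendritic cells: it had 13.4 CPM from 21 UMIs in the control and 2.38 from 4 in the MYC library (log2 ratio -2.50, -4.50 to -0.93), where 6.26% of all genes were called lower. These UMIs lay in 12 of 160 and 3 of 152 cells, and 18 and 8 cells of the class passed the C1q gate. The part of such cells in the Spic and Slc11a1 values of dendritic cells was not tested. With cells under 5% mitochondrial UMIs the Spic ratio was -0.99. Cd163 had 1.55 and 1.15 CPM in monocytes.

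Ireb2, the iron regulatory protein that is degraded when iron is plentiful, was evenly spread, between 15.4 and 68.6 CPM over the classes of the control. In the MYC library its level was below the control in 15 of the 16 classes with enough UMIs, with a median log2 ratio of -0.60 and in 11 of them an interval that excluded no difference. The exception was B progenitors, with 18 cells in the MYC library. Granulocyte progenitors had 35.4 CPM from 400 UMIs and 18.2 from 167 (log2 ratio -0.96, -1.23 to -0.69). Immature neutrophils had 39.2 and 22.9 CPM, mature neutrophils 51.5 and 35.7, and monocytes 44.2 and 29.5. Stem or multipotent progenitors had 46.7 and 31.3 CPM.

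Ireb2 reached a call in 3 classes. Plasmacytoid dendritic cells had 41.9 and 20.5 CPM (log2 ratio -1.03, -1.89 to -0.26), where 7.35% of all genes were called lower, and plasma cells had 15.4 and 6.27 (log2 ratio -1.30, -2.36 to -0.38), where 6.59% were. Late erythroblasts had 40 UMIs in the control against 1 in the MYC library (log2 ratio -3.34, with an interval of -8.68 to -0.78), where 9.12% of all genes were called lower. These levels are 2.34 and 0.174 times the free-RNA limit. After the median ratio of all genes was taken out of each class, Ireb2 was lower in 14 of the 16 classes and higher in 2. Haemoglobinizing erythroblasts had 39.8 and 37.8 CPM, which averages clusters that differed in opposite directions: cluster 9 (700 and 165 cells) had 40.1 and 28.5 CPM, and cluster 25 (102 and 161 cells) 34.8 and 80.6. Under other settings the log2 ratio came to -0.68 in plasmacytoid dendritic cells and -0.63 in plasma cells, both short of a call.

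A list of 45 further iron genes was read beside the 9. Over the 18 classes 455 of its values had enough UMIs, of which 21 were called higher and 24 lower (4.06% and 6.11% among all genes), with a median log2 ratio of -0.14. In macrophages 19 of the 45 could be compared, with 1 called higher and 2 lower, where 4.86% and 7.25% of all genes were. The heme transporter Slc48a1, which carries heme out of the phagolysosome, had 207 CPM from 53 UMIs in the control and 63.8 from 8 in the MYC library and was called lower. So was Slc25a37 (mitoferrin 1), the mitochondrial iron importer of erythroblasts, with 121 CPM from 31 UMIs and 15.9 from 2. Haemoglobin in these macrophages was at 15025 and 1810 CPM and Slc25a37 in the pooled erythroid classes at 947 and 482, and the part of erythroid RNA in this call was not tested. Cp, the ferroxidase ceruloplasmin that works with ferroportin, was called higher, with 46.9 CPM from 12 UMIs and 183 from 23. The transferrin gene Trf, the most abundant of the list in macrophages, was at 910 and 813 CPM, followed by the heme-hemopexin receptor Lrp1 at 387 and 470 and the iron chaperone Pcbp2 at 281 and 335.

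In the pooled erythroid classes 31 of the 45 could be compared, with 1 call in each direction, where 5.47% of all genes were called higher and 4.05% lower. Erfe encodes erythroferrone, the hormone by which erythroblasts lower hepcidin in the liver. It had 4.52 CPM from 102 UMIs in the control and 44.3 from 328 in the MYC library (log2 ratio 3.29, 2.97 to 3.63). Most of this lay in haemoglobinizing erythroblasts, with 7.35 and 101 CPM. Steap3, the ferrireductase that acts on iron released from transferrin in erythroblasts, had 81.6 and 37.9 CPM (log2 ratio -1.10, -1.29 to -0.92). Slc25a37 had 947 and 482 CPM there, a log2 ratio of -0.97 that stayed short of a call. Blvrb, a biliverdin reductase, had 936 and 1433 CPM, and Glrx5, which serves iron-sulphur cluster assembly, 763 and 813.

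In the neutrophil lineage 35 of the 45 could be compared. Steap3 was called lower, with 3.40 and 1.69 CPM, where 6.35% of all genes were called lower. Erfe (0.251 and 1.03 CPM) and Cp (0.155 and 0.448 CPM) were called higher, where 1.78% were. The free-RNA limit there was 0.0838 and 0.461 CPM for Erfe and 0.0903 and 0.419 for Cp. For Steap3 it was 1.62 and 0.749 CPM, so for each of these genes it differed in the same direction as the level. The part of free RNA in these differences was not tested. Haptoglobin (Hp), which binds free haemoglobin, was the most abundant of the list in this lineage, at 1113 and 1342 CPM, with Pcbp2 at 285 and 195 and Pcbp1 at 224 and 162. Among monocytes Slc25a37 was called lower, with 32.3 and 16.0 CPM, where 5.98% of all genes were, and the control level was 1.03 times the free-RNA limit. With the median ratio of all genes taken out, the calls of Steap3 in the neutrophil lineage and Slc25a37 in monocytes ended, at -0.73 and -0.87. The zinc and iron importer Slc39a14 was the only one of 32 compared genes called higher in monocytes, from 6 UMIs in the control against 28 in the MYC library, where 3.20% of all genes were. Hp had 600 and 979 CPM there. The chaperones Pcbp2 and Pcbp1 had 408 and 273 CPM in control monocytes and 360 and 263 in those of the MYC library.

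Over 42 points, each a class or cluster in 1 library with at least 50 cells, the pattern of each gene was compared with 12318 genes by Pearson's r of log2(CPM + 1). These points share libraries and depth, and the values are descriptions. Macrophages gave only the control point, with 52 cells, because the MYC library had 29. That point had the highest Spic and Cd163 levels of all, and its part in their r values was not tested. Tfrc was most like Ubac1 (0.88), Urod (0.88) and Glrx5 (0.87), and Slc11a1 like Metrnl (0.88), Sirpb1c (0.87) and Hmox1 (0.86). The genes nearest to Hmox1 were Slc11a1 (0.86), Sirpa (0.83) and Tlr8 (0.80). Spic was closest to Ms4a14 (0.90), Mertk (0.90) and Ms4a7 (0.87), and Cd163 to Asgr2 (0.81), Kcnj9 (0.79) and Epb41l3 (0.79). Slc40a1 was closest to Agap1 (0.77), Ehd1 (0.73) and Ces1d (0.71), and Ireb2 to Prr14l (0.85), Smarcd2 (0.85) and Mllt10 (0.84). The ferritin genes had weaker nearest genes: Rab3il1 (0.70), Hs6st1 (0.67) and Gpr146 (0.66) for Fth1, and Tlr8 (0.75), the pseudogene Ftl1-ps1 (0.72) and Lrrc25 (0.70) for Ftl1.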

How the data were processed

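Per the labels' protocols, bone marrow cells were measured with a droplet 3′ kit in 2 libraries. The authors deposited raw UMI counts (whole numbers for each gene in each barcode), and the file headers name Cell Ranger 6.0.0. The submitters' processing notes also name Seurat and the builds GRCm38 and mm10, with no roles; how barcodes were called as cells is not given in the sources used here.

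Barcodes with fewer than 500 UMIs or 200 genes, or with 10% or more mitochondrial UMIs, were dropped. This left out 1609 control and 1600 MYC-library barcodes for mitochondrial UMIs. Scrublet's automatic threshold (scanpy 1.11.5) marked 558 control barcodes and 0 of the MYC library, so a score of at least 0.2 was used in both, chosen after the data were seen: 558 (3.61%) and 356 (2.76%) were removed, and doublets remain likely. Cells of both libraries were clustered together (2000 variable genes without the 9 genes and the iron list, 30 principal components, 15 neighbours, Leiden resolution 1) and named from marker lists. Clusters with a median UMI count under 0.2 of their library's stayed unnamed, also chosen after the data were seen. Counts were summed per class and library, and intervals (Poisson, conditional binomial and Clopper-Pearson, 95%) cover counting error only. The limit for free RNA assumes that all S100a8 and S100a9 UMIs of a class (haemoglobin UMIs for the neutrophil lineage) came from free RNA. The text names all 9 genes, genes of the iron list by call or level, and for each gene its most similar genes. The genes, lists and markers were chosen with earlier results of these data known. The ratio and its interval were tested on simulated counts. No test across samples was possible. Alternatives were other clustering resolutions, each library clustered on its own, stricter cell filters, doublets kept, median-of-ratios scaling, means over cells, other denominators and other call thresholds.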

Additional observations from a re-analysis of the deposited data

How the results depend on the processing

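Over the 18 classes, 10 values of the 9 genes were called higher and 12 lower. The number higher was 3 with cells under 5% mitochondrial UMIs, where no macrophage, haemoglobinizing erythroblast or stem class could be named, and 6 after a stricter depth filter (1000 UMIs and 500 genes per cell). The number lower was 4 after that filter and 20 at a threshold of 1.5-fold. Of all genes 4.31% were called higher under the first of these settings and 3.66% under the second, where 5.82% were called lower, with 89 and 100 values of the 9 genes tested. At 1.5-fold 14.4% of all genes were called lower. The other 22 of 26 counts, from these and further settings, were within 1.5 times of the main ones. After the depth filter the log2 ratio of Tfrc in macrophages was -0.16, and the class so named there was mostly cells of cluster 10. The macrophages of the main clustering that passed the filter gave 2.33. As a mean over cells the log2 ratio of Cd163 in macrophages was 0.11, where 1 control cell held 26 of 40 UMIs. Of the 22 called values 20 kept their sign in every setting that could name their class. Clustering each library on its own gave -4.24 for Hmox1 and -5.94 for Slc40a1 in macrophages, where that class joined macrophages with cluster 10 cells. No paired analysis was possible because each genotype had 1 library. The log2 ratio of Fth1 in haemoglobinizing erythroblasts lay between -0.53 and 0.51 under these settings and was 0.70 in the separate erythroid clustering, so its sign was not stable. Cd163 and Spic had under 20 UMIs in all but 2 of the 18 classes each.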
